A study of Arabidopsis thaliana with 12 samples.

Results

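The probe sets described here rose at least 2-fold with labelled submergence in Arabidopsis thaliana leaves of both labelled genotypes. A probe set is a group of short probes on an Affymetrix ATH1 array whose summarised brightness, the signal, stands for 1 transcript or a few related ones. Members were chosen by their measured change in signal with labelled submergence in both genotypes. A member had to exceed the 40th percentile of an array on 3 or more of the 12 arrays. Its mean log2 signal also had to be at least 1 higher in submerged than in dark leaves in wild type, and again in ago1-27. Of 22810 probe sets, 14812 passed the filter and 124 met both thresholds. 6 were then set aside by name (AT3G55920, SNZ, XTH33, JAL22, JAL33 and TUB1), which left 118 members. EXLA1, an expansin-like gene, stayed in because its symbol is not of the EXP form. Of the 118 members, 56 name 1 gene in the annotation used here, 1 names AT4G12510 and AT4G12520 together, and 61 are unnamed.

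The study compared Col-0 wild type with ago1-27, a hypomorphic allele of ARGONAUTE1, the protein that carries microRNAs to their target transcripts. Plants of both genotypes, 4 weeks old per the sample labels, were kept in the dark for 12 h. In each genotype 3 samples were dark controls and 3 were submerged during that time, with water 10 cm above the leaves, so darkness is shared by all 4 groups. Each sample pooled the leaves of 4 plants, and the samples are biological replicates per the labels. In whole leaves, fewer cells of a type and less RNA per cell cannot be told apart.

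Submergence slows gas exchange between leaf and air. Leaves under water can run short of oxygen and of carbohydrate, and they accumulate ethylene. Arabidopsis responds with fermentation, sugar starvation programmes and changes in growth, in which cell wall proteins, transporters and proteases take part.

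The labels limit what the comparison shows. The annotation names no probe set for AGO1, so the mutant could not be checked on its own gene. The control probe set U12639 read between 24471 and 29779 on the 6 arrays labelled dark and between 1.74 and 44.7 on the 6 labelled submerged. Genes of a low-oxygen list followed the other label. Of 15 measured, 14 were lower on arrays labelled ago1-27 by limma, against 24.1% of probe sets tested. With labelled submergence 1 rose in wild type and 0 in ago1-27, against 4.71% and 4.19%, and the 1 was not called without WT_submerged replicate 1 or 2 or WT_dark replicate 2 or 3. The signal of PDC2, a pyruvate decarboxylase of ethanol fermentation, was 2838 ± 493 in WT_dark, 2712 ± 545 in WT_submerged, 114 ± 22.8 in ago1-27_dark and 152 ± 74.8 in ago1-27_submerged (SD, n = 3 each). If the labels of WT_dark and ago1-27_submerged were exchanged, the members would be probe sets higher in wild type than in ago1-27 in both treatments. The difference between labelled genotypes, averaged over treatments, would then be dark minus submerged. Whether they were exchanged cannot be told from the labels, and groups are named below as labelled.

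Signs of RNA quality also differed between groups. The GAPDH control signal at the 3' end, divided by that at the 5' end, ranged from 1.69 to 2.24 on arrays labelled ago1-27 and from 1.23 to 1.52 on those labelled wild type. The same ratio for actin was lower in WT_submerged than in WT_dark (6.3 ± 0.63 and 7.95 ± 0.48) and higher in ago1-27_submerged than in ago1-27_dark (11.4 ± 0.99 and 8.02 ± 0.86; SD, n = 3 each). The 25S ribosomal RNA control read 8322 ± 1698 in ago1-27_submerged and between 14622 and 21199 on the arrays of the other groups. The part of these signs in the values below was not tested. As defining leaf genes, RCA, the activase of Rubisco, read 21033 ± 1433 in WT_dark, 24117 ± 1689 in WT_submerged, 29421 ± 1336 in ago1-27_dark and 29240 ± 2453 in ago1-27_submerged (SD, n = 3 each). PRK, phosphoribulokinase of the Calvin cycle, read from 9167 in WT_dark to 22193 in ago1-27_dark (group means). These were the 2 of 10 mesophyll markers named among the probe sets tested. The guard cell marker FMA was low, at 69.4 ± 6.14 in WT_dark and 142 ± 25.1 in ago1-27_submerged. No gene of the flower and seed, phloem or epidermis markers was named among the probe sets tested.

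The changes that chose the members are given as a description, with no test. The median change with submergence was 1.44 on the log2 scale in wild type (range 1 to 3.49) and 1.30 in ago1-27 (range 1 to 4.57), against 0.07 and 0.06 over all probe sets tested. The change was larger in wild type for 73 members and larger in ago1-27 for 45, and for 45 members the changes lay within 0.25 of each other. For 39 members the smaller of both changes was under 1.1, for 23 it was at least 1.5 and for 5 at least 2. Just inside were AT1G32190 (1.0013) and AT1G53180 (1.0021). Just outside were GH9C2 (0.9984 in ago1-27) and AT1G66250 (0.9982 in ago1-27), and 53 probe sets had a smaller change from 0.9 up to 1. A rise of at least 1 was reached by 3.65% of the probe sets tested in wild type, by 2.63% in ago1-27 and by 0.837% in both. Nothing is read from these shares, since the rule used both changes.

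**Figure D1:**
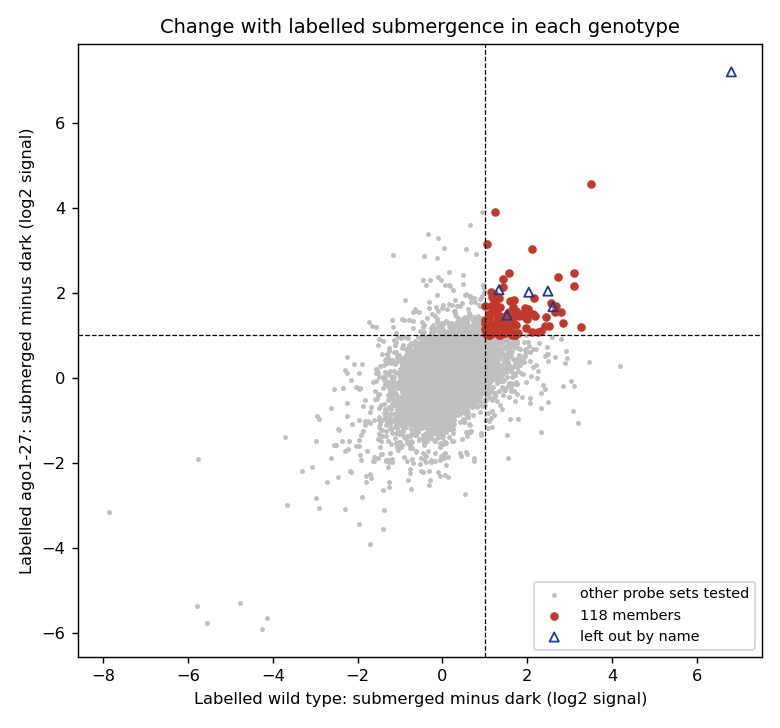
Change in log2 signal from dark to submerged arrays in labelled wild type (horizontal) and labelled ago1-27 (vertical), a point for each of the 14812 probe sets tested. The 118 members (red) fill the corner beyond both dashed lines at 1, and open triangles are the 6 probe sets set aside by name.

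Members were dim. Their median signal was 130 (geometric mean over the 4 groups), against 383 over all probe sets tested and 178 over the 108 probe sets that fell at least 2-fold in both genotypes. Their median standard deviation between arrays of a group was 0.48 on the log2 scale, against 0.25 over all tested and 0.53 over those that fell. Taking the 40th percentile of an array as its low-signal limit (72 to 120), 34 members exceeded it on every array and 15 on submerged arrays only. Those 15 could pass the filter only through the groups in which they were high. In 50% of the members at least 1 group lay wholly under the limit, against 11.9% of probe sets tested. Where all dark arrays of a genotype lay under it, the fold is a lower bound against the limit. A fold measured on both sides in both genotypes was available for 59 members, a fold or a bound for 95, and 65 reached 2-fold in both genotypes with the bound in place of the fold. All submerged arrays exceeded all dark arrays in 98 members in wild type and 104 in ago1-27, against 15.5% and 18.4% of probe sets tested. Both held for 90 of 118 members, against 5.55% of probe sets tested, and for 43 of the 56 named members. Since the rule used these differences, nothing further is read from those counts.

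The member with the largest smaller change has no gene name here. Probe set 264513_at read 85.4, 50.2 and 85.8 in WT_dark, 788, 911 and 730 in WT_submerged, 61.4, 36.8 and 64.4 in ago1-27_dark and 1021, 1193 and 1595 in ago1-27_submerged. All 6 submerged arrays lay far above all 6 dark arrays, by 11.3-fold in wild type and at least 13.9-fold in ago1-27. Among the other unnamed members, 247718_at and 250832_at rose more in ago1-27 than in wild type, by a log2 change of 3.91 against 1.25 and of 3.15 against 1.05.

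The named member whose smaller change was largest was PYK10, the main beta-glucosidase of ER bodies, which cleaves indole glucosinolates in defence and is known best from roots and seedlings. Its signal was 72, 2.2 and 18.6 in WT_dark, 73.4, 121 and 214 in WT_submerged, 93.9, 53.7 and 112 in ago1-27_dark and 302, 225 and 1372 in ago1-27_submerged. WT_dark arrays all lay under the low-signal limit, which gives at least 1.6-fold in wild type and 5.49-fold in ago1-27. The treatments did not overlap within a genotype, but in wild type only narrowly (73.4 against 72). In ago1-27_submerged, replicate 3 stood far above its group. PYK10 was 1 of the root markers. The other measured one, AT2G16750, read 56.5 ± 33.8 in WT_dark and 44.1 ± 13.1 in WT_submerged, 102 ± 21.2 in ago1-27_dark and 86.8 ± 10.1 in ago1-27_submerged (SD, n = 3 each). By limma neither AT2G16750 nor PYK10 was called in either submergence comparison. The summed root marker signal was 27.3 to 164 in WT_dark and 126 to 243 in WT_submerged. It was 142 to 238 in ago1-27_dark and 322 to 1460 in ago1-27_submerged.

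Genes of the cell wall and the apoplast were the most numerous group among the named members, with 11 of the 41 to which a role could be given. The groups by role were drawn up after the values were seen. No share over all probe sets was computed for them, so their sizes are a description only. EXLA1, of the expansin-like proteins related to wall-loosening expansins, read 62, 163 and 60.6 in WT_dark, 472, 331 and 336 in WT_submerged, 71.6, 91.3 and 115 in ago1-27_dark and 326, 252 and 206 in ago1-27_submerged. Every submerged array exceeded every dark array, 4.41-fold in wild type and 2.83-fold in ago1-27. These folds, like the others given here, come from group means of log2 signal. AT1G67330, of the DUF579 family of polysaccharide methyltransferases, read 104, 58.3 and 49 in WT_dark, 272, 210 and 195 in WT_submerged, 116, 65 and 50.2 in ago1-27_dark and 189, 278 and 190 in ago1-27_submerged. Treatments did not overlap, and the arrays of both genotypes spanned similar ranges. AT4G11290, a class III peroxidase of the kind that cross-links wall polymers, read 90.8, 66.6 and 63 in WT_dark, 319, 185 and 170 in WT_submerged, 56.3, 63.9 and 67.8 in ago1-27_dark and 184, 175 and 193 in ago1-27_submerged. It rose 2.98-fold in wild type and at least 2.05-fold in ago1-27, with no overlap between treatments.

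The other members of the group act on pectin, lignin precursors or the wall surface. They were the peroxidase AT2G37130, the pectin methylesterase inhibitor family gene AT1G23205, the polygalacturonase family gene AT1G80170, the pectin lyase-like AT3G42950 and the dirigent family gene AT3G13650. The putative methyltransferase AT2G43200, the monolignol glucosyltransferase UGT72E1 and the cupredoxin AT1G72230 completed it. Across the 11 the median log2 change was 1.61 in wild type and 1.24 in ago1-27. Of the cellulose and pectin list, 2 genes were measured and neither was a member. By limma AT3G62820 and ATPMEPCRB rose in wild type, by log2 changes of 1.54 ± 0.25 and 1.30 ± 0.21 (SE; adjusted p = 0.0044 and 0.0035), where 4.71% of probe sets tested were called higher and 2.37% lower. In ago1-27, where 4.19% were called higher and 4.19% lower, they were not called, at 0.48 ± 0.25 and 0.30 ± 0.21 (adjusted p = 0.26 and 0.39).

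4 members encode small secreted proteins. AT4G25780 and AT4G25790, neighbours in the genome, belong to the CAP superfamily that includes pathogenesis-related PR-1. AT4G25780 read 9.52, 48.2 and 11.5 in WT_dark, 87.4, 76 and 41 in WT_submerged, 61.7, 69.9 and 45.1 in ago1-27_dark and 131, 176 and 201 in ago1-27_submerged. The wild-type treatments overlapped and no fold is given there, while ago1-27 rose at least 1.86-fold. AT5G05960 and AT5G01870 are lipid transfer protein family genes. AT5G05960 read 418, 105 and 224 in WT_dark, 699, 621 and 435 in WT_submerged, 460, 355 and 292 in ago1-27_dark and 1183, 1703 and 2961 in ago1-27_submerged, a rise of 2.68-fold and 5-fold without overlap. AT5G01870 was erratic, with 187, 25 and 64.7 in ago1-27_dark and 146, 30.1 and 1271 in ago1-27_submerged. Of the list of lipid transfer and hybrid proline-rich proteins, 5 genes were measured through a probe set of their own, and none of these was a member. By limma 3 of the 5 rose in wild type and 0 in ago1-27, against 4.71% and 4.19% of probe sets tested. The median log2 changes of the 5, 1.87 and -0.46, were both those of AT1G62500. That gene was erratic (SE 1.24), with 1083, 64.7 and 59.6 in WT_dark, and was not called in either comparison. The member that names AT4G12510 and AT4G12520 together stands for genes of that list and is not in its count. It read 52.3, 89.7 and 108 in WT_dark, 439, 239 and 159 in WT_submerged, 54.3, 53.9 and 75.8 in ago1-27_dark and 279, 195 and 186 in ago1-27_submerged. All 6 submerged arrays exceeded all 6 dark arrays, 3.21-fold in wild type and at least 2.41-fold in ago1-27. Elsewhere in the genome, AT1G80130 and AT1G80170 lay 6 genes apart and AT3G13650 and AT3G13672 lay 4 apart, and no other named pair lay within 10.

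Proteases and other hydrolases made up 7 members. AT3G61820, an aspartyl protease family gene, read 287, 90.8 and 112 in WT_dark, 440, 358 and 503 in WT_submerged, 265, 170 and 293 in ago1-27_dark and 594, 666 and 1430 in ago1-27_submerged. It rose 3-fold and 3.5-fold, and all submerged arrays exceeded all dark ones. AT3G15650, an alpha/beta hydrolase, read 98.5, 72.4 and 68.9 in WT_dark, 230, 157 and 459 in WT_submerged, 42.8, 40.4 and 57.5 in ago1-27_dark and 102, 127 and 197 in ago1-27_submerged. It rose 3.23-fold in wild type and at least 1.52-fold in ago1-27, where its group means were lower. The others were the cathepsin B-like AT1G02300, the papain family gene AT3G43960, the serine carboxypeptidase-like scpl50 and the alpha/beta hydrolases AT5G22460 and AT1G32190. Over the 7, the median log2 change was 1.19 in wild type and 1.56 in ago1-27.

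Enzymes of metabolism were 6 members. ALN, allantoinase, which opens the ring of allantoin in the recycling of purine nitrogen, read 260, 252 and 259 in WT_dark, 688, 703 and 577 in WT_submerged, 269, 296 and 234 in ago1-27_dark and 768, 843 and 579 in ago1-27_submerged. The spread within its groups was small and treatments lay well apart in both genotypes, with rises of 2.54-fold and 2.72-fold. AT3G46490, of the 2-oxoglutarate-dependent oxygenase family, read 43.7, 14.7 and 14 in WT_dark, 147, 147 and 104 in WT_submerged, 69, 64.6 and 101 in ago1-27_dark and 261, 261 and 166 in ago1-27_submerged. The treatments did not overlap, with rises of at least 1.7-fold in wild type and 2.92-fold in ago1-27. The other 4 were the copper amine oxidase AT1G31710, the gluconate kinase family gene AT2G16790, the flavin monooxygenase family gene AT5G07800 and AT1G06000, a flavonol rhamnosyltransferase.

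Transport was represented by 5 members. AT1G68600, of the aluminium-activated malate transporter family of anion channels, read 359, 324 and 411 in WT_dark, 1120, 749 and 929 in WT_submerged, 114, 173 and 102 in ago1-27_dark and 490, 593 and 347 in ago1-27_submerged. It rose 2.54-fold and 3.68-fold, and its level differed between the genotypes as well. The GABA transporter gene AT1G08230 rose 2.52-fold in wild type and 2.02-fold in ago1-27. The others were the sugar transporter family gene AT5G18840, AT5G50740 of the heavy metal-associated domain family, and SAG29, a SWEET sugar exporter known from senescing leaves. SAG29 lay near or under the low-signal limit and its arrays overlapped in both genotypes, so no fold is given.

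Regulators numbered 5: the transcription factor bZIP44, the zinc finger gene AT1G14580, the SINA family gene AT3G13672, the RING finger gene AT2G35910 and the receptor-like kinase AT1G51850. The bZIP44 signal was 246, 110 and 205 in WT_dark, 487, 484 and 349 in WT_submerged, 171, 126 and 162 in ago1-27_dark and 286, 275 and 433 in ago1-27_submerged, without overlap between submerged and dark arrays. SP1L2, a SPIRAL1-like protein of the microtubule cytoskeleton, and PRA1.B4, a prenylated RAB acceptor of membrane traffic, also met the rule, and each overlapped between treatments in at least 1 genotype.

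The 15 remaining named members have no role given here or a broad family only. AT1G12080, related to a vacuolar calcium-binding protein, read 486, 171 and 126 in WT_dark, 1708, 1768 and 1153 in WT_submerged, 368, 283 and 367 in ago1-27_dark and 827, 687 and 1656 in ago1-27_submerged. It rose 6.93-fold in wild type and 2.91-fold in ago1-27, with no submerged array as low as a dark one. AT1G80130, a tetratricopeptide repeat protein, was among the brightest, with 851, 504 and 703 in WT_dark, 1789, 1458 and 2794 in WT_submerged, 843, 1243 and 976 in ago1-27_dark and 2362, 3942 and 2378 in ago1-27_submerged. Treatments were again apart, 2.89-fold and 2.79-fold. AT4G01390, of the MATH domain family, read 29, 36.4 and 17 in WT_dark, 108, 95.8 and 139 in WT_submerged, 72.4, 60.6 and 11 in ago1-27_dark and 282, 383 and 239 in ago1-27_submerged. Both of its dark groups lay wholly under the limit, which gives at least 1.46-fold and at least 3.3-fold. AT1G15870, of the mitochondrial glycoprotein family, read 53.5, 46.7 and 24.3 in WT_dark, 134, 106 and 143 in WT_submerged, 20.2, 35.4 and 50.2 in ago1-27_dark and 60.7, 92.9 and 164 in ago1-27_submerged. Both of its dark groups lay under the limit too, and its bounds were at least 1.64-fold in wild type and at least 1.09-fold in ago1-27. The others were AT1G11800, AT1G27030, AT1G53180, AT2G47010, AT3G29375, AT3G48640, AT3G54510, AT4G02170, AT4G13120, AT5G12110 and AT5G35480.

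**Figure D2:**
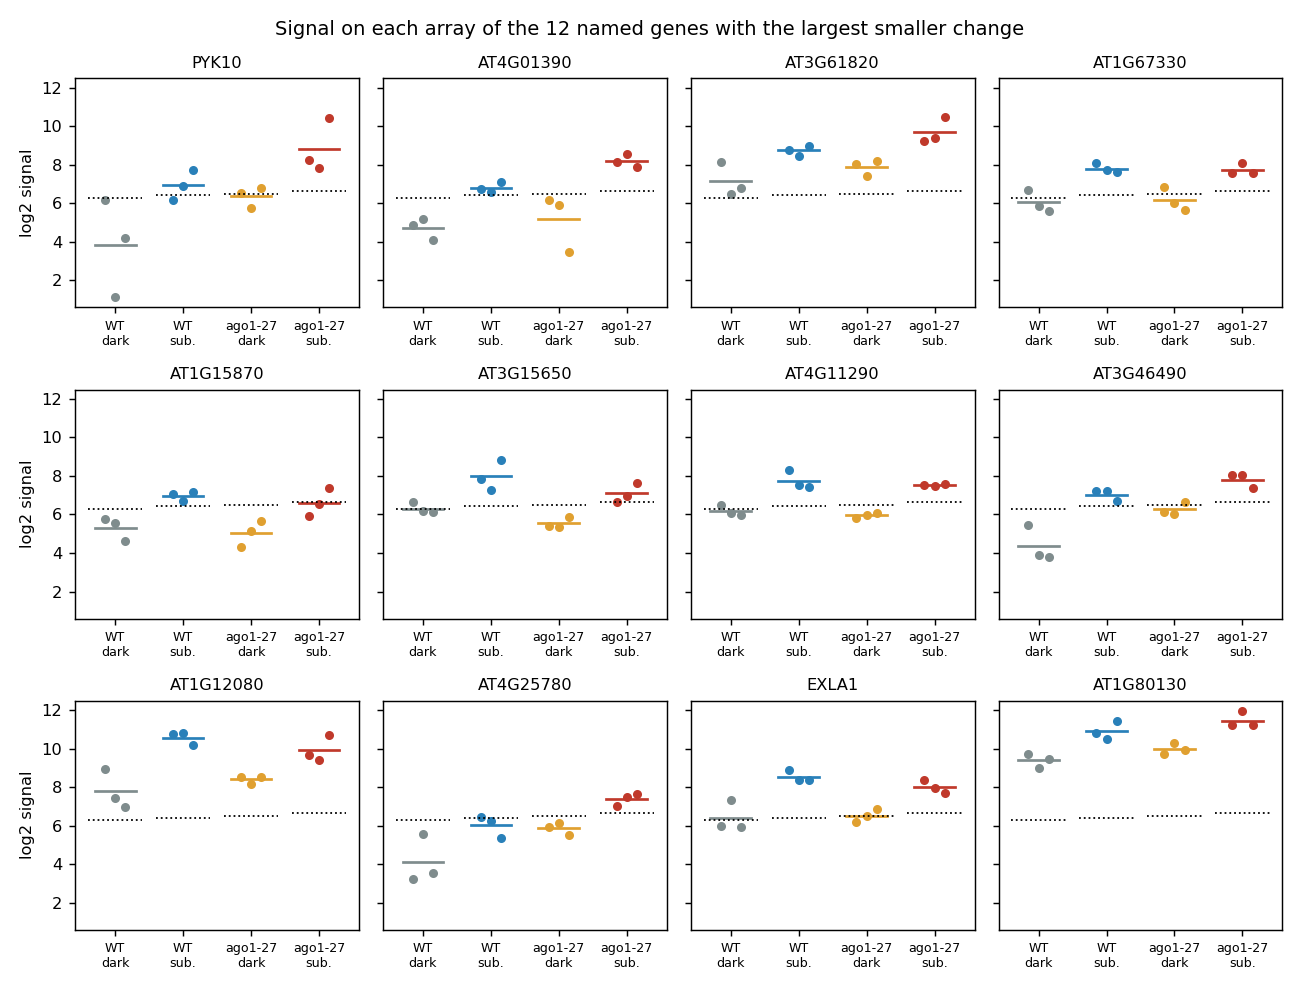
Log2 signal on each array (points) and group means (bars) for the 12 named members with the largest smaller change, with the low-signal limit of each group dotted. For 11 of the 12 the treatments did not overlap within either genotype, and in wild type AT4G25780 overlapped. WT_dark lay wholly under the limit for PYK10, AT4G01390, AT1G15870, AT3G46490 and AT4G25780.

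The size of the rise was unequal between the genotypes for 12 members, at 1 or more on the log2 scale. It was larger in wild type for 9, among them AT1G72230 (3.26 against 1.21), AT1G12080 (2.79 against 1.54), AT3G46490 (2.66 against 1.55) and AT5G07800 (2.12 against 1.09), and larger in ago1-27 for 3, all unnamed. AT1G72230 lay wholly under the limit in WT_dark, at 20.5, 4.26 and 2.31. Of the 12, 4 had a fold measured on both sides in both genotypes, and AT1G12080 was the named 1 among them. WT_dark lay under the limit in AT3G46490 and AT5G07800 as well. Since the rule set a floor under both changes, their difference was not tested.

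The rule did not use the difference in level between the labelled genotypes, averaged over treatments. It is independent of both submergence differences by construction, although the signal filter did use level, and it was tested with limma over all 14812 probe sets. By this test 76 of 118 members (64.4%) were called at an adjusted p under 0.05, against 63.1% of all probe sets tested, so the share of members is near the background. Higher on arrays labelled ago1-27 were 52 members (44.1%), against 38.9%, and lower were 24 (20.3%), against 24.1%. The median difference was 0.45 on the log2 scale, against a shift of 0.17 over all probe sets. Median centring lowered the shift to 0.07, and 74 members were then called, 48 of them higher. Over all 14812 probe sets 9188 were called under that setting, 54.4% of them higher. Of the 76, 14 lay wholly under the limit in 1 genotype (9 in ago1-27 and 5 in wild type) and passed the filter only through the other, in which they are high. Among the remaining 104 members 62 were called (59.6%), against 61.6% of the probe sets tested with neither genotype wholly under the limit. Differences between the genotypes of at least 1 on the log2 scale were called for 50 members (42.4%), against 24% of probe sets tested, and for 38 of the 104 (36.5%), against 21.1%. Members were also dimmer and more variable between arrays than the probe sets tested. The 104 still include members mostly under the limit in 1 genotype, such as AT1G72230. The part of dim signal in these larger shares was not tested. All 6 ago1-27 arrays exceeded all 6 wild-type arrays for 12 members, against 20.4%, and the reverse held for 5, against 14%. Taken in either direction, the genotypes were apart for 17 members (14.4%), against 34.4%. The rule spread the arrays of each genotype apart by treatment, which bears on this count directly. The GAPDH ratio, given above, moved with the same label.

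Of the 56 named members 21 were higher in ago1-27, 12 were lower and 23 were not called. Over all probe sets tested, 38.9% were called higher and 24.1% lower. Counts by role, here and below, rest on few genes each, and nothing is read from them. Of 11 cell wall genes 2 were higher, 2 lower and 7 not called. The cupredoxin AT1G72230 was higher (limma, adjusted p = 8e-05), with 5 of 6 wild-type arrays under the limit, so no size is given. The polygalacturonase family gene AT1G80170, under the limit in both wild-type groups and so admitted through its ago1-27 arrays, was at least 1.25-fold higher (adjusted p = 0.00063). The peroxidase AT2G37130 was lower by a log2 difference of -0.999 ± 0.21 (SE; adjusted p = 0.001), and UGT72E1 by -0.56 ± 0.17 (0.011). Of 6 metabolic genes 4 were higher and 0 lower, among them AT1G31710 by 2.14 ± 0.27 (1.9e-05). AT1G06000, admitted in the same way, was at least 2.35-fold higher. ALN was not called, with a log2 difference of 0.09 ± 0.11 (adjusted p = 0.49). Of 7 proteases and hydrolases 2 were higher, scpl50 by 1.03 ± 0.16 and AT3G61820 by 0.84 ± 0.29 (adjusted p = 0.00011 and 0.024), and 3 were lower. The call of AT3G61820 was lost without WT_submerged replicate 2, WT_dark replicate 2 or 3, ago1-27_submerged replicate 3 or ago1-27_dark replicate 1 or 3 (highest adjusted p = 0.062).

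Of 5 regulators 1 was higher and 2 were lower in ago1-27. The receptor-like kinase AT1G51850 read 166, 254 and 269 in WT_dark, 739, 840 and 200 in WT_submerged, 29, 4.69 and 3.84 in ago1-27_dark and 9.47, 20.7 and 37.7 in ago1-27_submerged. Both ago1-27 groups lay under the limit, at least 3.54-fold below wild type (limma, adjusted p = 1e-05), so its rise in ago1-27 is a difference between signals under the limit. It passed the filter only through its wild-type arrays, as did AT2G35910, AT4G02170, AT4G25790 and AT5G18840, so that the filter favoured a difference in them. Of all probe sets tested with ago1-27 wholly under the limit, 85.4% were called by genotype. AT2G35910 was at least 1.46-fold lower (3.5e-05). In the same way AT4G02170, a gene of no stated role here, read from 343 to 367 in WT_dark and from 627 to 1121 in WT_submerged, but from 7.55 to 15 in ago1-27_dark and from 20.4 to 46.3 in ago1-27_submerged, at least 5.75-fold lower (1.7e-08). Of the transport genes AT5G50740 was higher by 2.58 ± 0.50 (adjusted p = 0.0006), AT1G68600 and AT5G18840 were lower, and 2 were not called. AT1G68600 was lower by a log2 difference of -1.25 ± 0.17 (3.7e-05). AT5G18840, under the limit in both ago1-27 groups, lost its call (adjusted p = 0.033) without WT_dark replicate 3, ago1-27_submerged replicate 1 or 2 or ago1-27_dark replicate 2, with a highest adjusted p of 0.082. Of the small secreted proteins AT5G05960 was higher by 1.21 ± 0.31 (adjusted p = 0.0041) and AT5G01870 was not called. Of the neighbouring CAP genes AT4G25780 was called higher (0.0044), with 5 of 6 wild-type arrays and all of ago1-27_dark under the limit. AT4G25790 was called lower (0.0015), with every array but those of WT_submerged under it, and no size is given for either. PYK10 was called higher in ago1-27 (adjusted p = 0.017), with 4 of 6 wild-type arrays under the limit. The other measured root marker, AT2G16750, was also higher, by 1.02 ± 0.32 (adjusted p = 0.013), and the part of root marker level in the PYK10 difference was not tested. SP1L2 and PRA1.B4 were not called.

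**Figure D3:**
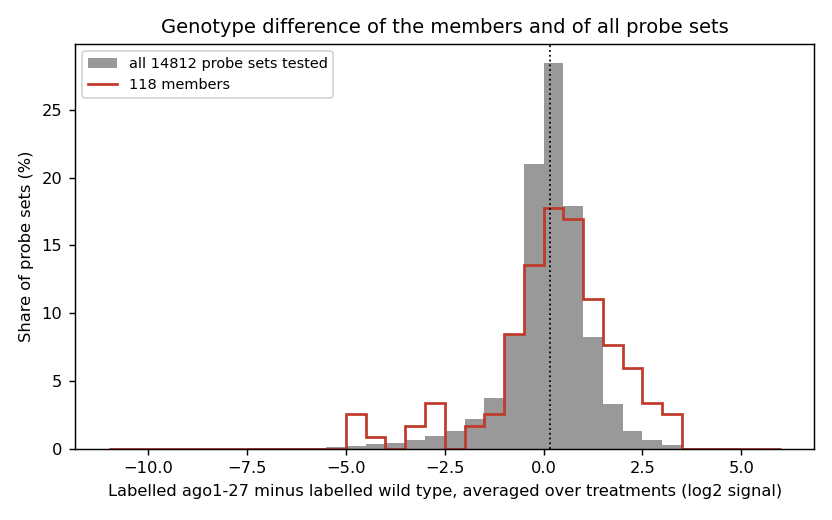
Share of probe sets by genotype difference (labelled ago1-27 minus labelled wild type, log2 signal, averaged over both treatments) for all 14812 probe sets tested (grey) and the 118 members (red outline). The dotted line is the median of all probe sets, 0.17. Members spread more widely on both sides of it, and they were also dimmer and more variable between arrays.

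The members fell into 3 orders of level. In 84 both submerged groups had higher means than both dark groups, against 12.7% of probe sets tested, and for 50 members all 6 submerged arrays exceeded all 6 dark arrays, against 1.76%. In 22 the ago1-27_dark mean was at or above that of WT_submerged (55.9% of probe sets tested). The named genes of this kind were AT1G72230, AT1G80170, AT5G50740, AT5G12110, AT1G31710, AT1G06000, AT3G54510 and AT5G35480. AT1G31710, the copper amine oxidase, read 153, 54.5 and 38.9 in WT_dark, 186, 200 and 175 in WT_submerged, 365, 309 and 373 in ago1-27_dark and 680, 583 and 935 in ago1-27_submerged. In the remaining 12 WT_dark was at or above ago1-27_submerged (29% of probe sets tested). The named ones were AT4G02170, AT1G51850, AT2G35910, AT3G48640 and AT4G25790. Since the rule raised the submerged groups, the orders are given as counts with no test.

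**Figure D4:**
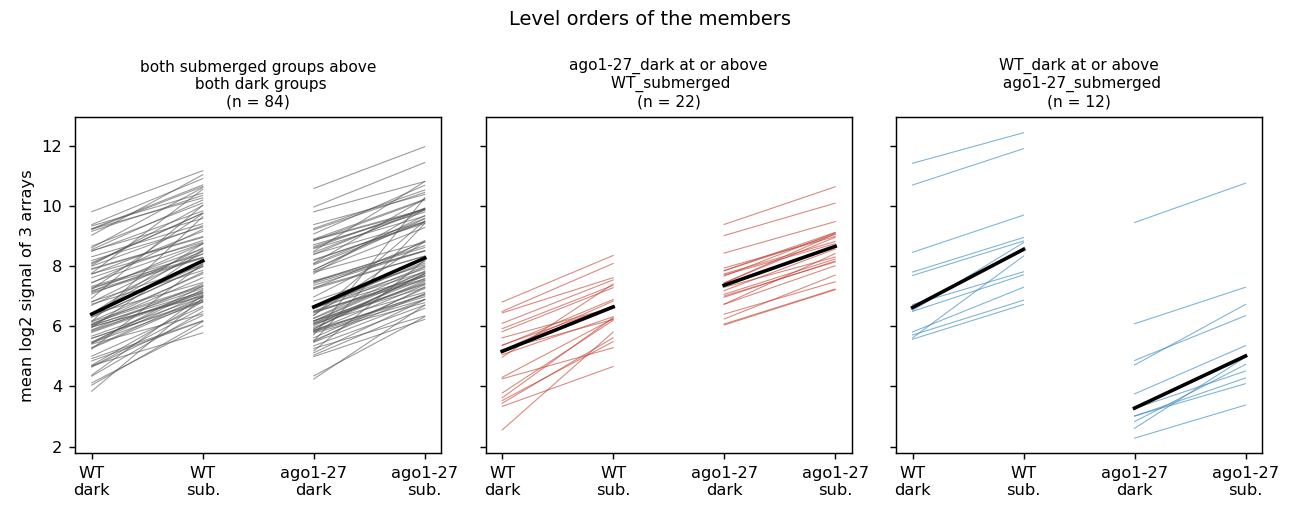
Mean log2 signal of each member in the 4 groups of 3 arrays, with a line from dark to submerged within each labelled genotype and the median of each panel in black. The panels hold the 84 members whose submerged groups were both above both dark groups, the 22 in which ago1-27_dark reached WT_submerged and the 12 in which WT_dark reached ago1-27_submerged.

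Other gene lists were compared with the named members. No gene of the low-oxygen list was a named member. Only 15 of its 30 genes were measured, and 61 members are unnamed, so others of the list could be among them. Beside the counts given above, 0 of its 15 measured genes fell in wild type and 2 fell in ago1-27 (1 without any 1 of the ago1-27_dark arrays), where 7.08% and 8.38% of all probe sets tested were called in either direction. The median log2 change of the list was 0.13 and 0.08. Only 2 list genes outside the members were called in both submergence comparisons. AT1G73600, a phosphoethanolamine methyltransferase of phosphocholine synthesis, rose by 0.79 ± 0.22 in wild type and 2.91 ± 0.22 in ago1-27 (SE; adjusted p = 0.048 and 2.9e-05), and missed the members through its wild-type change. Under 13 of 23 alternatives its wild-type call was lost, among them no signal filter, quantile normalization and leaving out any single wild-type array. COR15B, a chloroplast protein gene of cold acclimation, fell by 1.62 ± 0.19 and 1.87 ± 0.19 on the log2 scale (adjusted p = 0.00066 and 0.00034). Of 4 measured genes of phosphocholine synthesis, 1 rose in wild type and 2 in ago1-27, against 4.71% and 4.19% of probe sets tested. The 1 in wild type was AT1G73600, with the losses of its call given above. Of 3 light-harvesting antenna genes, 1 rose in wild type (0 without WT_submerged replicate 1 or WT_dark replicate 2 or 3) and 0 in ago1-27, and of 3 cold and abscisic acid genes 0 rose and 1 fell in each. The 2 jasmonate genes and the auxin and shade growth gene IAA29 were not called in either. No gene of the aquaporin, clock, ethylene and gibberellin, salicylic acid or sugar starvation lists was named among the probe sets tested.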

How the data were processed

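Leaf RNA of 12 samples was hybridised to 12 ATH1 arrays after biotin labelling with a 3' in vitro transcription kit, per the labels. The deposited table holds a linear signal intensity for each probe set, from MAS5 per the submitters' notes on processing; every array had a 2% trimmed mean of 500. Detection calls and raw probe values were not used here. Column names mapped all 12 samples, and groups came from the titles. Of the probe sets, 13513 name 1 gene in the supplied annotation (13436 matched in RefSeq), 503 name several and 8730 name none. Gene coordinates of RefSeq were used only to find named members near each other in the genome. Probe sequences and promoters were not used here.

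After a filter (above the 40th percentile on 3 arrays) and removal of 64 controls, limma 3.58.1 (R 4.3.3) was run on log2 signals with a mean for each of the 4 groups and eBayes with trend (degrees of freedom: 8 residual, 4.61 prior), and p-values were adjusted by Benjamini-Hochberg over 14812 probe sets. The fit was tested on simulated data. The number of arrays limits the precision. A list gene is called measured where a probe set that passed the filter names it alone. For each such gene the brightest probe set was taken. All members naming 1 gene are named. Array values are given for the 12 with the largest smaller change, and for further members chosen after their values were seen. The members and lists were chosen with earlier results of these data known. Replicate numbers did not pair the arrays.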

Additional observations from a re-analysis of the deposited data

How the results depend on the processing

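The number of members depended on how dim signals were treated: 338 without a filter, 64 above the 60th percentile and 76 with a pseudocount of 16, against 118. It was 91 with a floor at the 25th percentile, 89 after median centring, 92 after quantile normalization (90 shared) and 96 without the 2 arrays that lie apart (83 shared), and 94 to 140 without single arrays. The 2 arrays that lie apart were WT_dark replicate 1 and ago1-27_submerged replicate 3. Members called by genotype numbered 46 with the stricter filter, since fewer members were tested, 67 to 80 without single arrays and 90 with array weights. Over all probe sets the genotype calls were 7158 with the stricter filter, 8629 to 9705 without single arrays and 10630 with array weights. The submergence calls in wild type, 1048, ranged from 320 (without WT_submerged replicate 1) to 2506 (without WT_dark replicate 1), and were 3866 without the 2 arrays that lie apart and 4419 with array weights. Those in ago1-27, 1241, ranged from 352 (without ago1-27_dark replicate 2) to 1865 (without WT_dark replicate 1), and were 2701 with array weights. The cause was not tested. Median centring moved the share of higher calls from 66.5% to 52.1% in wild type, from 50.0% to 41.5% in ago1-27 and from 61.7% to 54.4% by genotype.

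Of 33 named members called by genotype, 18 were tested under all 23 alternatives and 16 of these kept their call and direction. The other 15 were not tested above the 60th percentile, and some not without single submerged arrays, and 14 of them kept it wherever tested. No call reversed (0 of 33), and AT3G61820, AT5G18840 and AT1G80130 lost it. AT1G80130 (0.56 ± 0.20, adjusted p = 0.024) lost it after median centring (0.055) and without WT_submerged replicate 1 or 2, WT_dark replicate 2, ago1-27_submerged replicate 2 or ago1-27_dark replicate 2 (highest adjusted p = 0.064). Of 23 not called, 6 were called under at least 1 alternative and 10 turned sign. After median centring these were AT1G67330 (-0.0706), ALN (-0.0079), AT5G22460 (-0.0261) and AT1G08230 (-0.0089). After quantile normalization they were AT1G67330 (-0.15), ALN (-0.0035), AT3G43960 (-0.0338), AT1G08230 (-0.0618) and AT1G53180 (-0.0440), and with a floor AT2G43200 (0.0136). Without the 2 arrays that lie apart they were AT1G12080 (0.10) and AT2G43200 (0.0849), and with array weights AT1G12080 (0.14), AT2G43200 (0.0700), AT3G43960 (-0.0082) and SAG29 (-0.20).

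Without single arrays, members that turned sign ranged for AT1G12080 from -0.20 to 0.28, AT2G43200 from -0.13 to 0.16, AT1G53180 from -0.10 to 0.52, AT1G08230 from -0.029 to 0.19. For the others the range was AT1G67330 from -0.14 to 0.19, SAG29 from -0.15 to 0.59, EXLA1 from -0.34 to 0.012 and AT5G22460 from -0.051 to 0.25.

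With the replicate number as a block, 78 members were called by genotype, and over all probe sets 9308 by genotype, 1101 by submergence in wild type and 1179 in ago1-27. Of 18 same-numbered pairs of arrays, 8 had a residual correlation above 0.1 (range -0.28 to 0.35), so the numbers were not taken to pair the arrays. Counts for the lists moved by more than 1.5 times in 50 of 1311 recomputations.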
